A study of Homo sapiens with 24 samples.

Results

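The 8 snoRNA host genes described here are GAS5, SNHG1, SNHG5, SNHG6, SNHG8, SNHG10, SNHG12 and SNHG20, long noncoding RNA genes that carry small nucleolar RNAs (snoRNAs) or Cajal body RNAs (scaRNAs) in their introns. They were taken by gene name from 6 lists of enriched eCLIP windows and make up 8 of the 9792 genes named there. eCLIP maps where a protein is crosslinked to RNA: the protein is immunoprecipitated (IP), and for each window of at most 100 bases the IP reads are compared with input reads. The hosts had 2 of the 6773 windows in SNRNP200 eCLIP of arsenic-treated cytoplasm and 5 of 4182 in untreated cytoplasm. In whole cells they had 89 of 117690 with arsenic and 108 of 182066 without it. CAPRIN eCLIP gave 3 of 15831 windows and G3BP1 eCLIP 6 of 3023.

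All libraries came from HEK293, an established line of human embryonic kidney cells. The 24 libraries form 12 groups of 2, an input and an IP group for each of 6 experiments. These are SNRNP200 in the cytoplasmic fraction with 500 µM arsenic and without it, SNRNP200 in whole cells with and without the same dose, and CAPRIN and G3BP1, both without arsenic by their sample characteristics. The treatment protocol field names arsenic for all 24 libraries, against the characteristics of those called untreated, CAPRIN or G3BP1 here. The grouping follows the characteristics. Nothing in the labels shows that replicates came from separate cultures, and p-values here measure only the spread between these samples, which may be technical. SNRNP200, also called Brr2, is a spliceosomal RNA helicase that separates U4 from U6 RNA before splicing catalysis. G3BP1 is a core protein of stress granules, and the label CAPRIN does not give the family member.

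A snoRNA host gene is transcribed and spliced like an mRNA, and its snoRNAs are trimmed out of the excised introns by exonucleases. C/D box snoRNAs guide ribose methylation and H/ACA box snoRNAs guide pseudouridylation of ribosomal RNA, while scaRNAs guide the modification of spliceosomal RNAs. The spliced exons of several hosts, GAS5 and SNHG1 among them, have little coding capacity and are short-lived in the cytoplasm because nonsense-mediated decay removes them. Splicing of these introns is therefore a step in making snoRNAs, and a spliceosomal helicase meets the host transcript at its splice sites.

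RefSeq places 30 small RNAs inside the 8 genes, 2835 of their 28445 bases or 9.97%. GAS5 (chr1:173863901-173869045) holds 11 and SNHG1 (chr11:62851978-62855885) holds 9. SNHG12 (chr1:28578538-28582983) holds 4 and SNHG5 (chr6:85677007-85678733) holds 2. SNHG6, SNHG8 (chr4:118278762-118279823), SNHG10 (chr14:95532912-95534872) and SNHG20 (chr17:77088643-77094986) hold 1 each. All coordinates are hg38, and the small RNA positions are from RefSeq GRCh38.p14.

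The first 50 transcribed bases of 4 host genes are shown because they carry a splice site letter motif or lie under a listed window. The RefSeq table of such stretches holds 7 of the 8 hosts. They are from RefSeq GRCh38.p14, 5′ to 3′ on the transcribed strand, with GTAAGT or GTGAGT in capitals where a search found either:
SNHG1: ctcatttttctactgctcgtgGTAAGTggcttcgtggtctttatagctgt
SNHG5: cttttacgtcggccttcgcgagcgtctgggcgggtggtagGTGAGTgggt
SNHG8: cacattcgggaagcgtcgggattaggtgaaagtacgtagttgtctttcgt
SNHG20: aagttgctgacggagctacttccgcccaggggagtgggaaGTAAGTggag
These are chr11:62855836-62855885 on the minus strand, chr6:85678684-85678733 on the minus strand, chr4:118278762-118278811 on the plus strand and chr17:77088643-77088692 on the plus strand. Both motifs are forms of the sequence that follows an exon at a 5′ splice site, searched on the transcribed strand only. Among the 35116 such stretches in the RefSeq table, 0.726% hold GTAAGT and 1.71% hold GTGAGT. The 4 stretches were picked in part for holding a motif, so their matches cannot be set against these shares. A match is a description of the letters and not evidence of a used site.

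The SNHG1 stretch lies under an SNRNP200 window at chr11:62855786-62855885, which the list types as exon with an adjacent 5′ splice site. Its log2 enrichment of IP over input was 4.90 and 5.13 in arsenic-treated whole cells, against 5.01 and 5.39 in untreated whole cells. The SNHG5 stretch lies wholly under a CAPRIN window (chr6:85678654-85678748) with log2 values of 2.71 and 3.29, and no SNRNP200 window reached it. The SNHG8 stretch lies mostly under a window listed in the cytoplasm with arsenic and in whole cells (chr4:118278709-118278804), and its last bases under the next window of both whole-cell lists (chr4:118278805-118278900). No listed window reached the SNHG20 stretch.

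In whole cells, SNRNP200 windows were found on all 8 hosts, with arsenic and without it. Of the 89 windows in arsenic-treated cells, 82 had an exonic and 7 an intronic leading type. Of the 108 windows in untreated cells, 97 were exonic, 9 intronic and 2 of a small RNA type. Being listed is common in whole cells: 75.8% of all genes had an exonic window with arsenic and 87.2% without it, and 71% and 81% had an intronic window. Against these shares, 8 of 8 hosts had exonic windows in both lists, and only GAS5, SNHG6, SNHG12 and SNHG20 had intronic ones, in both lists. Small RNA windows were listed for 1.02% of genes in untreated whole cells and, among the hosts, for SNHG12 over SNORA61 and SNHG20 over SCARNA16.

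**Figure D1:**
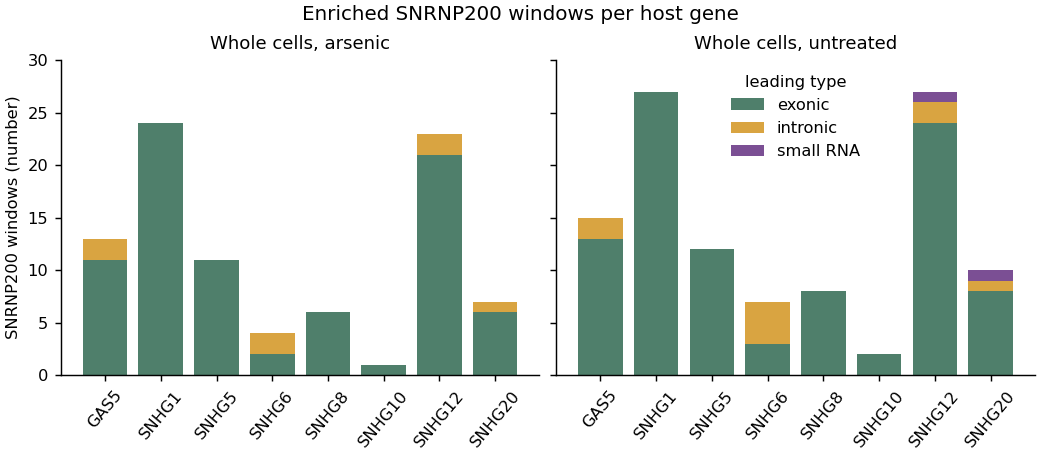
Number of enriched SNRNP200 windows (y axis) for each host gene (x axis) in arsenic-treated whole cells (left) and untreated whole cells (right), stacked by the leading type of the window. SNHG1 and SNHG12 carried the most windows, 24 and 23 with arsenic and 27 each without it, and SNHG10 the fewest, 1 and 2.

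Window density differed widely among the hosts. SNHG8 had 5.65 windows per kilobase of its RefSeq span with arsenic and 7.53 without it, SNHG5 6.37 and 6.95, SNHG1 6.14 and 6.91, and SNHG12 5.17 and 6.07. GAS5 followed with 2.53 and 2.92, SNHG20 with 1.10 and 1.58, SNHG6 with 1.04 and 1.82, and SNHG10 with 0.510 and 1.02. Among lncRNA genes with a window, SNHG1 ranked 9 of 163 by number of windows with arsenic and 14 of 193 without it, where the median gene had 2 and 3 windows. SNHG10 ranked 108 and 112 in the same lists. The ranks were not corrected for gene length or transcript level.

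The windows were also deep. A host window had a median of 72 IP and 10 input reads with arsenic and of 140 IP and 19 input reads without it, summed over the replicates. The median over all windows was 29 IP and 3 input reads with arsenic and 28 and 3 without it. Median log2 enrichment was 3.69 and 3.86 on the hosts, close to 3.60 and 3.46 over all windows of the arsenic and untreated lists. The replicates of a host window lay a median of 0.76 apart with arsenic and 0.58 apart without it, on the log2 scale.

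SNHG1, whose introns give the C/D box snoRNAs SNORD22 and SNORD25 to SNORD31, held the strongest window of the hosts in untreated cells. At chr11:62853128-62853220 its log2 values were 5.84 and 6.26 with arsenic, from 187 IP and 6 input reads, against 6.67 and 7.24 in untreated cells, from 343 IP and 6 input reads. The ranges of the 2 groups did not overlap there. At chr11:62853498-62853590 the values were 5.27 and 7.28 with arsenic and 5.92 and 6.72 without it, and these ranges overlap. The SNHG1 windows spanned mean log2 values of 1.62 to 6.28 with arsenic and 1.83 to 6.96 without it. The low end lay in the last exon stretch toward the 3′ end, with 1.61 and 1.63 with arsenic and 1.81 and 2.01 without it at chr11:62852087-62852185.

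GAS5, a growth arrest transcript that also binds the glucocorticoid receptor, had its strongest window at chr1:173867044-173867139. It had 5.07 and 7.24 with arsenic against 6.10 and 6.82 in untreated cells, with 355 and 517 IP reads over 9 and 14 input reads. Its most deeply read window, at chr1:173866454-173866551, had 5.61 and 6.28 with arsenic and 6.28 and 6.36 without it. Of its intronic windows, 1 is typed as adjacent to a 5′ splice site and the other only as near one. The adjacent one (chr1:173867860-173867959) had 4.29 and 5.59 with arsenic and 4.45 and 5.06 without it. All these GAS5 groups overlap.

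SNHG12, host of H/ACA snoRNAs and of SNORD99, had its highest mean with arsenic at chr1:28581237-28581327, with 4.12 and 7.74 in arsenic-treated cells and 3.80 and 5.48 in untreated cells. That wide arsenic range rests on 3 input reads. Its intronic window at a 3′ splice site, chr1:28578681-28578748, had 3.30 and 4.08 with arsenic and 4.74 and 6.45 without it, from 5 and 2 input reads. Those groups do not overlap.

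SNHG5, host of the SNORD50 pair, reached 3.34 and 5.76 with arsenic at chr6:85677192-85677268, against 3.48 and 5.65 in untreated cells. SNHG8, host of the H/ACA snoRNA SNORA24, had its highest mean in both lists at chr4:118279572-118279655. There its 2 replicates averaged 4.91 with arsenic, from 21 IP and no input reads, and 5.38 without it, from 64 IP and 3 input reads. SNHG6, host of SNORD87, had a 3′ splice site window (chr8:66922115-66922214) with 3.94 and 5.06 with arsenic and 3.91 and 4.69 without it. SNHG20, host of the scaRNA SCARNA16, had 4.05 and 4.26 with arsenic and 4.09 and 5.41 without it at chr17:77089210-77089306, the window that ends at the base before SCARNA16. SNHG10, host of SCARNA13, was the weakest, with 1.72 and 2.06 with arsenic and 2.03 and 2.18 without it at chr14:95533630-95533726, which also abuts its scaRNA.

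The split into exonic and intronic windows rests on how the list ranks its types. Of the host windows with an exonic or intronic leading type, 89 with arsenic and 106 without it, 92.1% were exonic with arsenic (95% Clopper-Pearson interval 84.5% to 96.8%) and 91.5% without it (84.5% to 96.0%). Over all such windows of these lists the exonic shares were 48.0% and 51.0%. However, 76 of the 82 exonic host windows with arsenic and 89 of the 97 without it also carry an intron or splice site type, which is 92.7% and 91.8%. The same double annotation applied to 22.1% and 19.4% of all exonic windows, and to 45.7% and 43.4% of exonic windows of other lncRNA genes. In other snoRNA hosts it was nearly as frequent, at 79.8% and 78.1% of exonic windows in noncoding hosts and 90% and 81.1% in ribosomal protein hosts. Only 6 host windows with arsenic and 8 without it carried exon types alone. A base that is intron in one annotated transcript and exon in another is typed exonic, so for these genes an exonic type does not place the protein on spliced RNA. Intervals here and below cover counting error only.

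The second annotation shows how close the windows lie to splice sites. An adjacent 5′ splice site was named for 49.4% of host windows with arsenic and 48.1% without it, against 28.7% and 24.9% of all windows. An adjacent 3′ splice site was named for 47.2% and 43.5%, against 23.1% and 20.5% of all windows. For exonic windows of other lncRNA genes the shares were 20.6% and 18.5% at 5′ and 13.4% and 12.4% at 3′ splice sites. These shares were not corrected for exon and intron lengths, and no test was made of them.

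Windows at splice sites had the higher medians. In arsenic-treated cells the median log2 enrichment was 4.08 in the 30 host windows at a 5′ splice site alone, 3.98 in the 28 at a 3′ splice site alone and 3.89 in the 14 at both. It was 3.03 in the 17 windows that name neither. In untreated cells the medians were 4.05 for 36 windows, 4.30 for 31 and 4.22 for 16, against 2.66 for the 25 that name neither. In exonic windows of other lncRNA genes the arsenic medians were 3.60 at a 5′ splice site alone, 3.27 at a 3′ splice site alone and 3.59 at both, against 3.24 at neither. There, as in the hosts, the windows that name neither had the lowest median with arsenic. The untreated medians of those genes lay between 3.01 and 3.15 in all 4 classes. These are descriptions over neighbouring windows that share reads and genes, with no test.

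**Figure D2:**
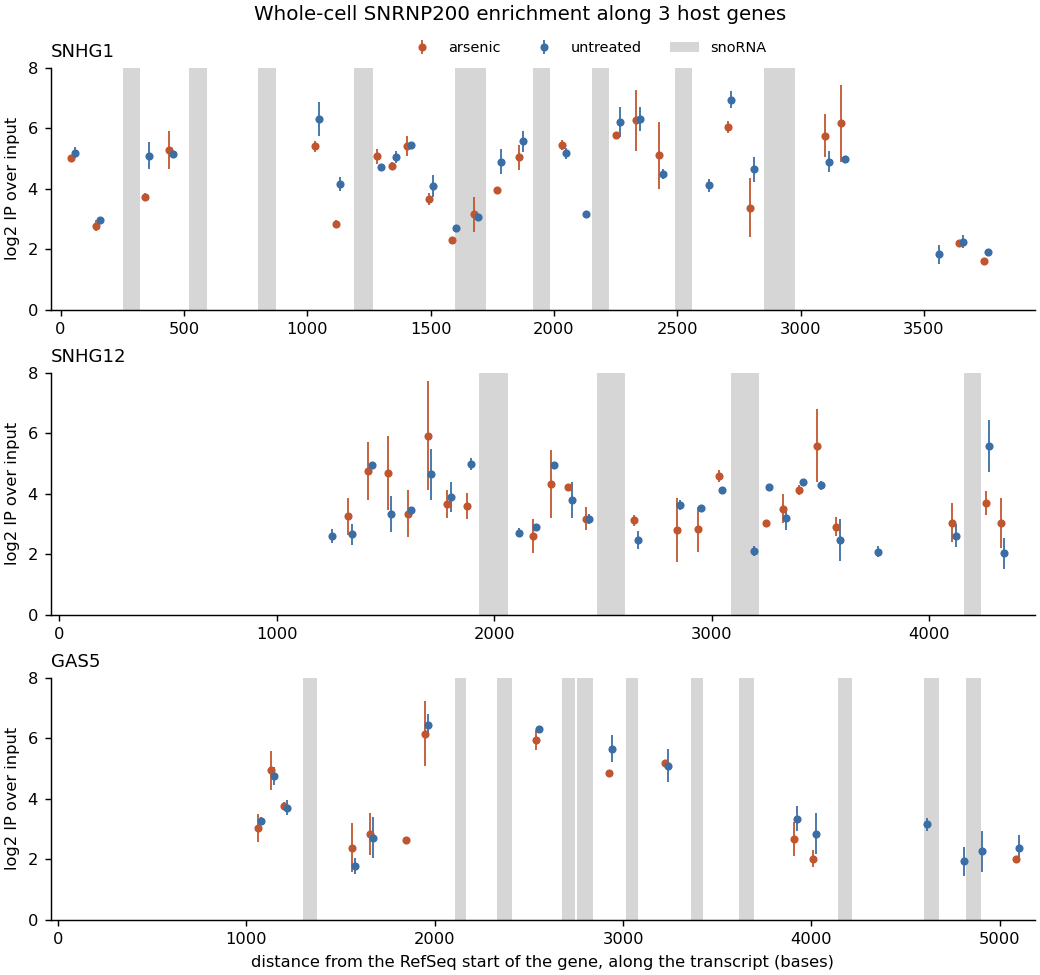
Log2 enrichment of IP over input (y axis) of each SNRNP200 window against its distance in bases from the RefSeq start of SNHG1 (top), SNHG12 (middle) and GAS5 (bottom). Points are the means and bars the 2 replicates, for arsenic-treated and untreated whole cells, and grey bands are snoRNAs. Most windows lie between the bands, and the SNHG1 window nearest its 3′ end has 1.62 with arsenic and 1.91 without it.

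The windows flank the small RNAs more often than they cover them. With arsenic, 5 of the 30 small RNAs had a window over them, and 20 of the other 25 had a window within 100 bases. Without arsenic, 11 of 30 had a window over them and 16 of the other 19 had one within 100 bases. Of all small RNA bases, 6.74% lay in a window with arsenic and 17.2% without it. Of the other bases of the 8 genes, 30.1% and 35.3% did. In untreated cells the windows within 100 bases had a median log2 of 4.11 on the 5′ side and 4.40 on the 3′ side of a small RNA, against 3.07 in the 13 windows over one. Windows farther away had 3.63. With arsenic the medians were 3.76 on the 5′ side and 4.53 on the 3′ side. They were 3.42 in the 6 windows over a small RNA and 3.58 farther away.

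Named small RNAs show the same layout. SNORD22, SNORD29 and SNORD26 in SNHG1 and SNORD76, SNORD77, SNORD44 and SNORD78 in GAS5 had no window over them in either list and at least 1 within 100 bases in both. SNORA24 in SNHG8 and SNORA44 in SNHG12 each had 3 windows within 100 bases and none over them, in both lists. SNORD81 in GAS5 was fully covered in untreated cells and not at all with arsenic. In SNHG1, LOC124900306, which RefSeq lists as a snoRNA, was fully covered in both. SNORD27, SNORD75 and SNORD79 had no window over or near them in either list. The windows over small RNAs had a median of 73 input reads in untreated cells, against 22 and 11 on their 5′ and 3′ sides.

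Small RNAs elsewhere in the genome had a comparable layout. Among other RefSeq small RNAs with a window over them or within 100 bases, 27.5% had one over them in the arsenic list and 33.2% in the untreated list. The counts to set beside these in the hosts are 5 over and 20 near with arsenic, and 11 over and 16 near without it.

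**Figure D3:**
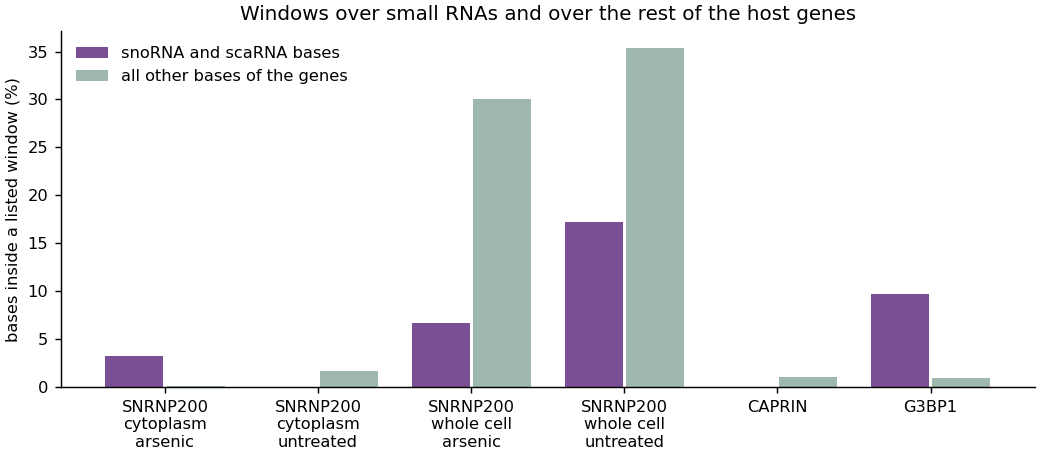
Percentage of bases inside a listed window (y axis) for the small RNAs of the 8 host genes and for all other bases of the same genes, in each experiment (x axis). In whole-cell SNRNP200 the small RNA bars are the lower ones, 6.74% with arsenic and 17.2% without it, and in G3BP1 the small RNA bar is higher, 9.66% against 0.941%.

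Arsenic left the set of windows largely in place. Of the 89 windows in arsenic-treated cells, 88 (98.9%) were among the 108 in untreated cells, where they are 81.5%. Over all genes, 77.4% of the arsenic windows and 50.1% of the untreated windows were shared. The 20 host windows listed in untreated cells alone were weaker, with a median log2 of 2.59 and 51.5 IP reads, against 4.12 and 152 in the 88 shared ones. Of these 20, 7 lay over a small RNA.

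In the 88 shared windows, enrichment was on balance slightly lower with arsenic. The difference, arsenic minus untreated, had a median of −0.23 on the log2 scale, with a range of −1.91 to 1.75. Over all 91143 shared windows the median was −0.01. It was above 0 in 32 of the 88 host windows (36.4%) and in 49.7% of all windows. The 2 arsenic replicates lay wholly above the 2 untreated ones in 5 host windows and wholly below them in 19. Over all shared windows, 15.6% lay apart with arsenic higher and 16.9% with arsenic lower. The host counts are given beside these shares with no test.

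SNHG5 differences all had 1 sign. The value was below 0 in all 11 of its shared windows, with a median of −0.61, and the replicates lay apart in 5. These windows lie along 1 gene and come from the same libraries, so they are not independent. At chr6:85677518-85677612 SNHG5 had 3.03 and 3.11 with arsenic against 4.76 and 5.04 without it, from 17 and 45 IP reads over 3 and 2 input reads. SNHG1 had 7 windows apart with arsenic lower and 1 with arsenic higher among 24, and a median of −0.24. SNHG12 had 4 lower and 2 higher among 23, with a median of −0.01. GAS5 had 1 lower among 12 and a median of −0.26, and SNHG8 1 lower among 6 and a median of −0.16. SNHG20 had 1 in each direction among 7, with a median of −0.38. SNHG6 had 1 higher among 4, with a median of 0.10, and the only shared SNHG10 window, at −0.21, overlapped.

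Only 12 of the 88 shared host windows were tested across genes, and none passed. The SNHG5 window tested, chr6:85677424-85677517, had a difference of −0.26. In 1 representative window per gene and type, the shared window with the most IP reads, limma called 0% of 12990 windows at an adjusted p under 0.05, and 539 had an unadjusted p under 0.05. The 12 host windows among them had differences of −1.91 to 0.79, each with an adjusted p of 0.992. The largest was the SNHG12 3′ splice site window, −1.91 ± 0.91 (SE; limma adjusted p = 0.992). With 1 of its 4 values left out it ranged from −2.77 to −1.05, and the mean over the shared intronic windows of SNHG12 was −0.74. The SNHG8 window beside SNORA24 (chr4:118279093-118279189) had 2.20 and 2.38 with arsenic against 3.44 and 4.07 without it, a difference of −1.47 ± 0.85 (SE; limma adjusted p = 0.992). The mean over the shared exonic windows of SNHG8 was −0.19. With 2 values against 2, changes of this size cannot be told from the spread between replicates.

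**Figure D4:**
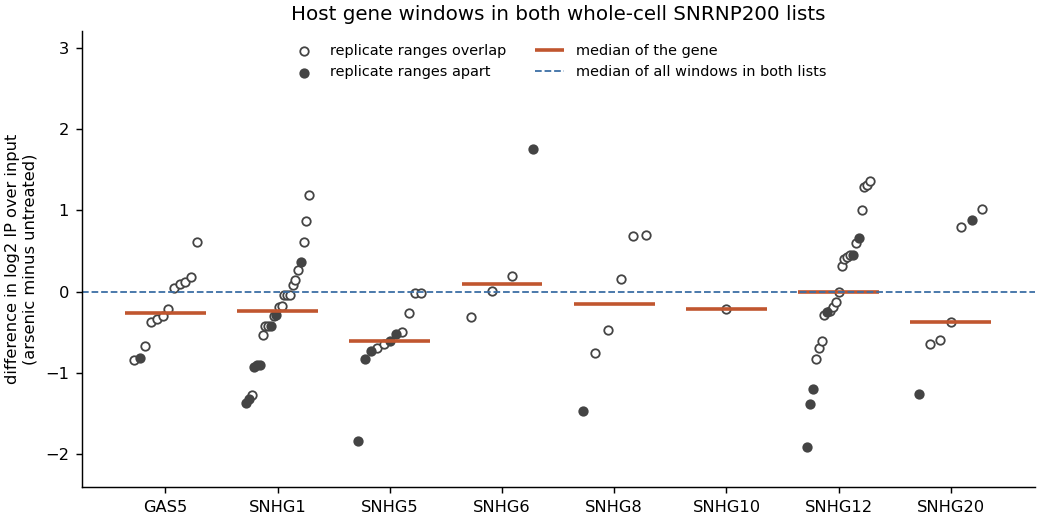
Difference in log2 enrichment between arsenic-treated and untreated whole cells (y axis) for each host window in both lists, by gene (x axis). Filled points have replicate ranges that do not overlap, bars are gene medians, and the dashed line is the median of all shared windows, −0.01. All 11 SNHG5 points lie below 0, and SNHG12 points lie evenly about it.

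The hosts took a smaller share of reads with arsenic, in the input as well as in the IP. In the windows of both lists, host windows took 0.353% of the IP reads with arsenic (95% interval 0.348% to 0.359%) and 0.525% without it (0.519% to 0.531%). They took 0.293% of the input reads with arsenic (0.279% to 0.308%) and 0.374% without it (0.359% to 0.390%). For SNHG6 the input share was 0.00501% with arsenic and 0.0125% without it, for SNHG12 0.0395% and 0.0686%, and for GAS5 0.0512% and 0.0699%. For SNHG5 it was 0.0245% and 0.0337%, and for SNHG8 0.00816% and 0.0138%. In all 5 genes the intervals lie apart. For SNHG1 it was 0.143% and 0.154%, for SNHG20 0.0200% and 0.0196%, and for SNHG10 0.00204% and 0.00208%, with intervals that overlap. The IP share of SNHG20 was 0.0186% in both, while those of SNHG1, SNHG5, SNHG6, SNHG8, SNHG12 and GAS5 were lower with arsenic, with intervals apart. The counts are sums over 2 replicates, so the spread between replicates behind these shares is unknown. Each share also depends on the reads of all other genes in these windows, so amounts of host RNA were not measured. In bulk libraries, fewer cells with an RNA and less of it per cell cannot be told apart either.

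**Figure D5:**
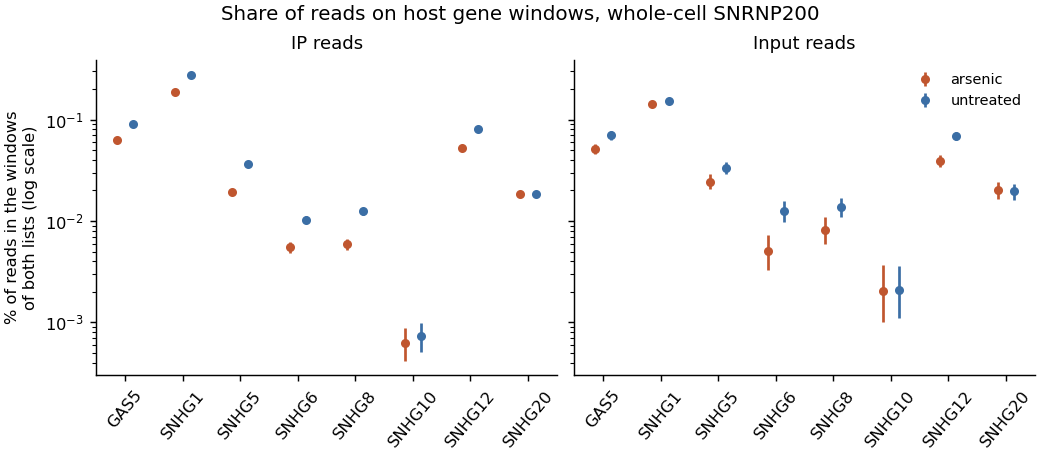
Share of IP reads (left) and input reads (right) on each host gene, in percent of the reads in all windows of both whole-cell lists, on a log scale, for arsenic-treated and untreated cells. Bars are exact 95% binomial intervals. The input points of GAS5, SNHG5, SNHG6, SNHG8 and SNHG12 are lower with arsenic, and those of SNHG20 coincide.

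In the cytoplasmic fraction, SNRNP200 had 2 host windows with arsenic and 5 without it, 0.0295% and 0.120% of these lists. The whole-cell shares were 0.0756% with arsenic and 0.0593% without it. In the cytoplasm with arsenic, 1 host had an exonic window, against 25% of all genes, and without arsenic 3 hosts had one, against 18.3%. No host had an intronic window there, and few genes did, 0.286% with arsenic and 0.439% without it. A gene absent from a list had no window below the q limit, which is not the same as no binding. The cytoplasmic host windows had 12 to 335 IP reads.

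SNHG1 had 3 cytoplasmic windows in untreated cells, next to each other toward the 3′ end (chr11:62852087-62852383), where its whole-cell windows were weakest. The replicates had 2.72 and 2.85, 2.59 and 2.64, and 3.09 and 4.10 in the cytoplasm, against 1.81 and 2.01, 2.04 and 2.48, and 1.53 and 2.14 in whole cells. The cytoplasmic values were higher in all 3, and the ranges lay apart. They rest on 61, 61 and 17 IP reads over 9, 10 and 1 input reads in the cytoplasm. At the less significant replicate, no cytoplasmic q of these windows was under 0.05. None of the many SNHG1 windows beside its snoRNAs was listed in the cytoplasm. GAS5 had 1 window (chr1:173867960-173867991) with 2.06 and 4.69 in the cytoplasm and 3.12 and 3.38 in whole cells, which overlap.

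SNHG20 lay the other way. Its window beside SCARNA16 had 1.78 and 1.96 in the cytoplasm, from 30 IP and 9 input reads, against 4.09 and 5.41 in whole cells, from 552 IP and 39 input reads. The difference of −2.88 ± 0.62 (SE) was the largest in size of the 408 representative windows, and its limma adjusted p of 0.262 missed the threshold. The representative windows of SNHG1 and GAS5 differed by 0.36 and 0.12, with limma adjusted p of 0.734 and 0.955. In this comparison limma called 0% of the windows, with 67 at an unadjusted p under 0.05. Of all 651 windows in both untreated lists, 29.8% lay apart with the cytoplasm higher and 21.2% with it lower, beside 3 and 1 of the 5 host windows.

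With arsenic, SNHG8 had the only exonic cytoplasmic window, over its start (chr4:118278709-118278804). It had 3.14 and 4.12 in the cytoplasm, from 12 IP and 10 input reads, and 2.58 and 4.18 in whole cells, from 66 IP and 10 input reads. Raw IP reads per input read were thus 1.2 in the cytoplasm and 6.6 in whole cells, and the log2 values are scaled separately in each list. The difference of 0.25 ± 0.93 (SE) had a limma adjusted p of 0.859, and the groups overlap. Limma called 0% of 546 windows in this comparison, with 97 at an unadjusted p under 0.05. Of all 882 shared windows, 60.1% lay apart with the cytoplasm higher and 1.93% with it lower. Their median difference was 1.36, above that of the SNHG8 window.

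The other arsenic window in the cytoplasm was of a small RNA type, which 0.143% of genes had there. It lies inside SCARNA13, the scaRNA of SNHG10 (chr14:95533446-95533537), with 335 IP and 260 input reads and log2 values of 3.85 and 3.96. Reads of the mature scaRNA and of the host transcript cannot be told apart in such a window. No host window was in both cytoplasmic lists, so the arsenic effect in the cytoplasm was not tested for them.

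CAPRIN and G3BP1 had 3 and 6 windows on the hosts, 0.0190% and 0.198% of their lists. CAPRIN had an exonic window on 3 of the 8, GAS5, SNHG5 and SNHG8, against 38.3% of all genes, and G3BP1 on GAS5 and SNHG1, against 9.93%. Neither had an intronic window on a host, against 8.66% of genes for CAPRIN and 2.3% for G3BP1. G3BP1 also had small RNA windows on SNHG1 and SNHG8, a type listed for 0.827% of genes. No CAPRIN window overlapped a G3BP1 window on these genes, so their levels were not compared. Shared windows were uncommon over all genes too, with 551 of the same bounds among 15831 CAPRIN and 3023 G3BP1 windows.

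The 3 CAPRIN windows were shallow, with 9 to 11 IP reads and at most 2 input reads each. They lay at gene ends and away from small RNAs. The GAS5 window ends the gene on its 3′ side (chr1:173863901-173863998) with log2 values of 3.21 and 3.32. The SNHG8 window is the last of its gene (chr4:118279740-118279823) with 4.56 and 4.79. The SNHG5 window covers its first bases, the stretch with GTGAGT shown above.

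Of the 6 G3BP1 windows, 5 overlapped a small RNA, and small RNAs take 53.2% of the bases of all 6. The 5 lie over SNORD22 in SNHG1, SNORA24 in SNHG8, and SNORD47, SNORD74 and SNORD76 in GAS5. The sixth, at chr11:62853036-62853129 in SNHG1, abuts SNORD22 on its 5′ side in the direction of transcription. The SNORD22 window (chr11:62852973-62853035) had 2.96 and 3.83 from 157 IP and 65 input reads, and the window beside it 3.23 and 3.88 from 60 IP and 23 input reads. In the other deposited G3BP1 set, with up to 3 replicates, the SNORD22 window had 1.29 and 1.75 from 298 IP and 388 input reads. The SNORA24 window had 1.57 and 2.51, from 84 IP and 85 input reads. Raw reads of IP and input were thus about equal there, and the log2 value is the one the authors scaled within a GC class. The 3 GAS5 windows had mean log2 values of 1.71 to 2.25, from 391 IP and 410 input reads together. Median log2 over the 6 host windows was 2.14, against 3.28 over all G3BP1 windows. Among other RefSeq small RNAs with a window over or within 100 bases, 75% had one over them in the G3BP1 list and 34.6% in the CAPRIN list.

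Other snoRNA hosts help to place these 8. Of 22 further noncoding hosts, 17 were in any list, and 70.9% of their whole-cell windows with arsenic and 68.4% without it were exonic by leading type. For 23 ribosomal protein genes that host snoRNAs the shares were 62.8% and 65.5%, and for 32 other protein-coding hosts 54.1% and 54.0%. In the cytoplasm with arsenic, 20 of the 23 ribosomal protein hosts had an exonic window, against 7 without it, while 1 and 3 of the 8 hosts described here did. The other noncoding hosts were closer to these 8, with 5 of 22 listed in arsenic-treated and 4 in untreated cytoplasm, and 5 for CAPRIN. CAPRIN had an exonic window on 21 of those 23 and on 27 of the 32 other coding hosts. The nuclear lncRNA MALAT1 had no SNRNP200 window in the cytoplasm, 2 in each whole-cell list and 11 for CAPRIN. NEAT1, another nuclear lncRNA, was in no list, whole cells included. NORAD, a cytoplasmic lncRNA, had 20 SNRNP200 windows in the cytoplasm with arsenic and 28 without it and none in whole cells.

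By numbers of exonic and intronic windows over the 6 lists, 5 of 6478 other genes with at least 10 windows were most like the mean of the hosts. They were PTRH2 with a Pearson correlation of 0.986, HAUS3 with 0.984, THUMPD1 with 0.981, and SNHG21 and SPATS2 with 0.980 each, over 12 list and type counts on a log2 scale. SNHG21 is itself a snoRNA host by name. All 5 had windows in the whole-cell lists alone. The hosts correlated with their own mean at 0.723 for SNHG6, which has more intronic than exonic windows in untreated cells, and at 0.910 to 0.977 for the others.

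Of 7 epithelial or kidney-line genes, KRT8, KRT18, KRT19, CDH2 and VIM had a window in some list, and EPCAM and CDH1 had none. The KRT8 and KRT19 windows were all intronic. Of 7 genes of blood, liver, endothelium and fibroblasts, 0 had a window. These counts do not identify the cell line.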

How the data were processed

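The data were SNRNP200, CAPRIN and G3BP1 eCLIP of HEK293 cells, with groups formed from the labels. Per the submitters' processing notes, reads were trimmed with fastp 0.11.5 and aligned with STAR 2.7.6 to hg38. The sources used here name no window caller. Each experiment has 1 deposited list with no header, whose columns were recognised by their contents. The deposited read counts of input and of IP are raw counts that the authors summed over replicates. The deposited log2 values are the authors' enrichments of IP over input within a GC class, as lowest, mean and highest replicate. For each window the authors give p-values and q-values of the least and the most significant replicate, and no listed q exceeds 0.2. GC content was deposited as the fraction of G and C in a window. Counts in listed windows are not library depths, and library totals were not used here.

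Each window's leading type set its class. A window of several genes counted for each. The 3242 G3BP1 entries form 2 sets by GC class, 1254 with 2 replicates and 1988 with up to 3, and windows in both were counted as 1. Differences were tested with limma 3.58.1 in R 4.3.3 (two-sided moderated test, no pairing, Benjamini-Hochberg over all windows), on the 2 replicate values of windows with the same bounds in both lists, checked on simulated data. Each gene and class gave 1 window, the shared one with the most IP reads. Levels in different lists were scaled separately by the authors, so differences include those of their baselines. With 2 against 2, an exact permutation test cannot reach 0.05. All 8 hosts were named, each with its strongest and representative windows, and the 5 genes most alike by log2(windows + 1). The hosts, gene lists and tests were chosen with earlier results of these data known. Alternatives were a variance trend, centring, stricter q and count limits, means over windows, values left out, other classes of windows, and at least 2 windows per gene.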

Additional observations from a re-analysis of the deposited data

How the results depend on the processing

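No paired analysis was possible because the lists give the lowest and highest replicate without their numbers. In whole cells the exonic shares stayed within their intervals when weighted by IP reads, at 95.1% with arsenic and 95.5% without it. Limited to q under 0.05 they were 90.6% and 93.9%. A limit to windows of 1 gene removed no exonic or intronic host window, so it could not change them. In the other lists all such host windows were exonic, so these checks could not change the share there. Counting small RNA windows as exonic, a setting chosen after seeing the data, also kept the whole-cell shares. Counting as exonic only windows with exon types alone was chosen after seeing the data too. It gave 6.74% in arsenic-treated and 7.55% in untreated whole cells. In the cytoplasm it gave 0% with arsenic and 40% without it, and it gave 33.3% for CAPRIN and 0% for G3BP1. Hosts with an exonic window numbered 0 in arsenic-treated and 1 in untreated cytoplasm, 0 for CAPRIN and 1 for G3BP1 when at least 2 windows were asked for, and 0 in both cytoplasmic lists at q under 0.05. Where a window needed 20 IP and 10 input reads or more, limma called 18 of 99 windows between untreated cytoplasm and whole cells, 3 of them higher in the cytoplasm, and 1 of 327 with arsenic. At q under 0.05 it called 1 of 25 with arsenic. Leaving out replicate values gave 0 to 138 calls with arsenic, the 138 without the lower cytoplasmic value. In the other alternatives, and for arsenic in whole cells in all of them, it called none. No tested host window passed the threshold in any setting.

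The sign of a host difference turned in 3 of 69 other settings. SNHG8 in whole cells became 0.16 at q under 0.05, where another window represents it, and centring gave −0.0059 for GAS5 without arsenic and −1.05 for SNHG8 with it, between cytoplasm and whole cells. With the lower or higher value of each window left out it turned in 13 of 64, and a lone value was assumed to vary like the others. The value left out is chosen by its size, so each difference shifts in a fixed direction. For arsenic in whole cells the ranges were −0.46 to 0.83 (GAS5 intronic), −1.26 to 0.066 (SNHG20 exonic), −0.35 to 1.94 (SNHG20 intronic), −0.81 to 0.29 (SNHG5), −0.75 to 0.13 (SNHG6 exonic) and −0.36 to 0.76 (SNHG6 intronic). Between cytoplasm and whole cells they were −1.19 to 1.43 for GAS5 and −0.55 to 1.05 for SNHG8. The cause was not tested. No host window was in both lists for arsenic in the cytoplasm or for CAPRIN against G3BP1, the other G3BP1 set included, so those alternatives were not run. Low input counts, often under 20 per window, limit single-window levels.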
